A study of Mus musculus with 6 samples.

Results

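The genes that encode the NF-kB transcription factor subunits and the proteins that restrain them were examined in cultured mouse basophils with and without IL-3. The set held 10 genes out of 37043 gene symbols in the count table. They were found by symbol and comprised the 5 subunits Nfkb1, Nfkb2, Rel, Rela and Relb and 5 inhibitors or brakes, Nfkbia, Nfkbib, Nfkbie, Nfkbiz and Tnfaip3. After IL-3, Nfkb1, Rela, Nfkbie and Nfkbiz were higher, Nfkb2 and Tnfaip3 were lower, and Rel, Relb, Nfkbia and Nfkbib did not pass the test.

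The cells were bone marrow-derived basophils (BMBAs) grown from wild-type C57BL/6J mice. Marrow was cultured for 7 days at 0.3 ng/mL of cytokine, which the methods of the study name as IL-3, and cells were then enriched with beads that bind CD49b, an integrin of basophils and NK cells. These BMBAs were exposed for 6 h either to PBS, the vehicle, or to 10 ng/mL of IL-3, and bulk RNA-seq was performed on 3 cultures per group. Both groups therefore carried the same genotype and the same IL-3 history, and the sources used here do not say whether any IL-3 remained in the PBS medium.

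NF-kB proteins bind DNA as pairs of subunits. In resting cells, IkB proteins hold these pairs in the cytoplasm. In the canonical pathway an IkB kinase complex marks the IkB proteins for destruction and releases pairs such as p50 with RelA or c-Rel, whereas in the non-canonical pathway the precursor p100 is trimmed and p52 with RelB is released. Several inhibitor genes are themselves NF-kB targets, which forms a feedback loop. In basophils and mast cells the pathway is known for its part in cytokine production after activating signals. IL-3 is the main growth and activating cytokine of basophils and signals chiefly through JAK2 and STAT5.

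Library totals ranged from 10537540 to 13999287 counts, and at this depth every one of the 10 genes passed the filter on low counts. Member counts per library ran from 124 (Relb in IL-3 replicate 3) to 3084 (Nfkbia in PBS replicate 1). Levels are given as CPM, which are counts brought to equal library size with TMM factors, in the order of replicates 1, 2 and 3. Differences were tested with edgeR's quasi-likelihood F test over 16675 genes, and a gene was called at a Benjamini-Hochberg adjusted p below 0.05. In bulk RNA, fewer cells of a type and less RNA per cell cannot be told apart.

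Of the 10 members, 6 were called, with 4 rising and 2 falling after IL-3. Over all genes tested, 38.2% were called, 18% higher and 20.2% lower. The 6 called members were also the ones whose PBS and IL-3 libraries did not overlap, 4 higher and 2 lower. Such separation was seen for 48.2% of all genes tested, 23.8% with IL-3 higher and 24.4% with IL-3 lower. The median log2 fold change of the members was 0.12 against -0.0033 for all genes tested, and the median size of the change without its sign was 0.40 against 0.29. Of the 5 subunits, 2 were higher, 1 lower and 2 not called, and the same counts were found for the 5 inhibitors. With library totals in place of TMM, 1 subunit was higher and 2 were lower, while the inhibitor counts stayed at 2 and 1. That scaling gave 1698 higher and 5030 lower of all 16675 genes.

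**Figure D1:**
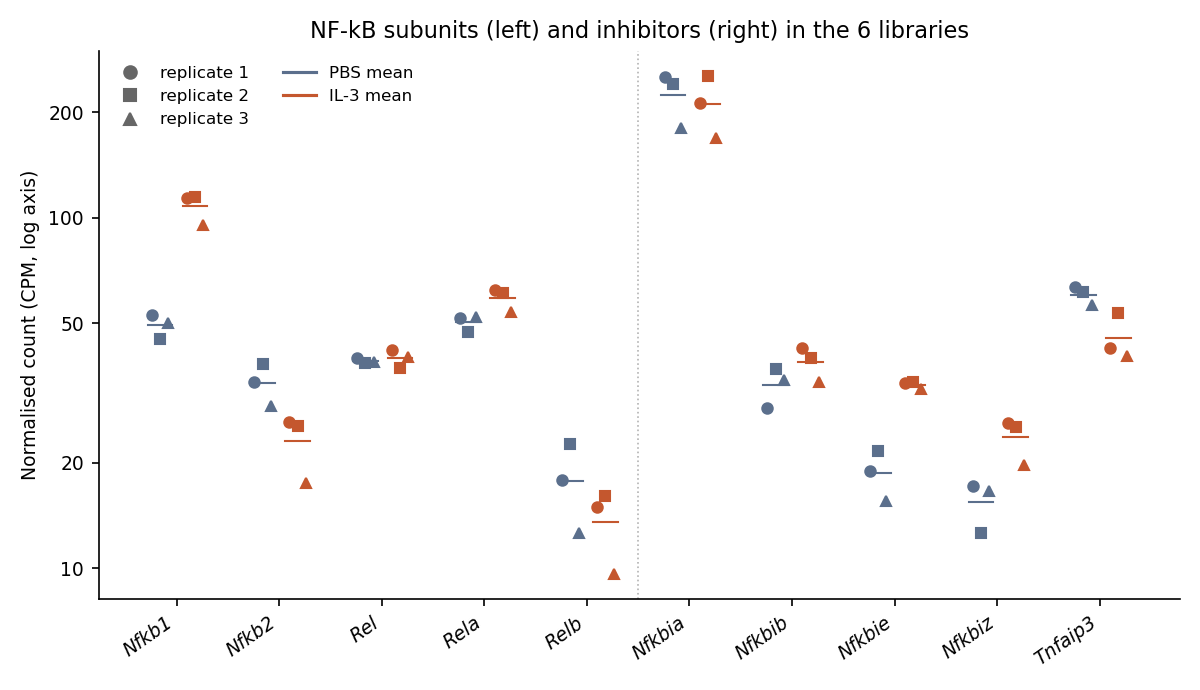
Normalised count (CPM, log axis) of the 10 members in each library, with symbols for the replicate numbers, blue for PBS, orange for IL-3 and a bar for each group mean. Nfkb1 rose from about 49.3 to 108 CPM with the groups wide apart, whereas the Nfkbia libraries of both groups spanned much the same range.

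Nfkb1 showed the clearest change of the subunits. It encodes p105, which restrains other subunits through its ankyrin repeats and is also processed to p50, the DNA-binding partner of RelA and c-Rel. Its level was 52.8, 45.2 and 50.1 CPM with PBS and 114, 115 and 95.5 CPM in IL-3. Each IL-3 library thus stood far above each PBS library. The mean rose from 49.3 ± 3.86 to 108 ± 10.8 CPM (SD, n = 3 per group), a log2 fold change of 1.13 ± 0.08 (SE) and a fold of 2.18 (95% confidence interval 1.93 to 2.47, edgeR adjusted p = 2.0e-08). It ranked 539 among the 16675 genes ordered from the largest rise down.

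Nfkb2 moved the other way. It encodes p100, the precursor of p52 and the substrate of the non-canonical pathway. It measured 33.9, 38.3 and 29.0 CPM with PBS and 26.2, 25.5 and 17.5 CPM in IL-3. All 3 IL-3 libraries lay below all 3 PBS libraries, although IL-3 replicate 1 and PBS replicate 3 were close. The mean went from 33.7 ± 4.67 to 23.1 ± 4.80 CPM (log2 fold change -0.56 ± 0.14, interval -0.85 to -0.26, edgeR adjusted p = 0.0050). In terms of exons, Nfkb2 overlaps Psd and AC114539.1 on the opposite strand, and 14.9% of its 50-base stretches are shared with them in reverse. The sources used here do not give the strand setting of the counting, so reads of these partners cannot be told apart from those of Nfkb2. Psd itself held 2 to 13 counts per library.

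The ratio of Nfkb1 to Nfkb2 within a library does not depend on how libraries are scaled. It was 1.56, 1.18 and 1.73 counts of Nfkb1 per count of Nfkb2 in PBS and 4.34, 4.51 and 5.45 in IL-3. Reads of the 2 precursor transcripts were thus closer to each other in every PBS library than in any IL-3 library.

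Rela encodes p65, the subunit that carries the main activation domain of canonical dimers. Its level was 51.6, 47.2 and 52.1 CPM with PBS and 62.0, 61.0 and 53.8 CPM in IL-3. The groups did not overlap, but IL-3 replicate 3 was within a few CPM of the PBS samples. The rise from 50.3 ± 2.71 to 59.0 ± 4.47 CPM was small (log2 fold change 0.23 ± 0.08, interval 0.06 to 0.39, edgeR adjusted p = 0.031). The call was lost without PBS replicate 2 (log2 fold change 0.18, edgeR adjusted p = 0.121), without IL-3 replicate 1 (0.19, adjusted p = 0.121), without IL-3 replicate 2 (0.20, adjusted p = 0.122) and with library totals in place of TMM (0.07, adjusted p = 0.583).

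Rel, which encodes the inducible subunit c-Rel, did not pass the test. It measured 39.8, 38.4 and 38.7 CPM with PBS and 41.9, 37.2 and 40.0 CPM in IL-3. The IL-3 libraries lay on both sides of the PBS libraries. Its log2 fold change was 0.03 ± 0.08, and the interval of -0.15 to 0.20 bounds the difference that these samples leave possible (edgeR adjusted p = 0.840).

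Relb encodes the partner of p52 and was the least abundant subunit in CPM. It measured 17.8, 22.6 and 12.6 CPM with PBS and 14.9, 16.1 and 9.62 CPM in IL-3. The groups overlapped, and replicate 3 was the lowest library in both. The log2 fold change of -0.39 ± 0.20 had an interval of -0.83 to 0.04 and did not pass the test (edgeR adjusted p = 0.146). It passed without PBS replicate 3 (-0.59, edgeR adjusted p = 0.0261), with library totals (-0.55, adjusted p = 0.0410), with no filter on low counts (-0.38, adjusted p = 0.0294) and with the replicate number as a block (-0.38, adjusted p = 0.0296). It was smaller without PBS replicate 2 (-0.18, edgeR adjusted p = 0.553) and without IL-3 replicate 3 (-0.19, adjusted p = 0.505).

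**Figure D2:**
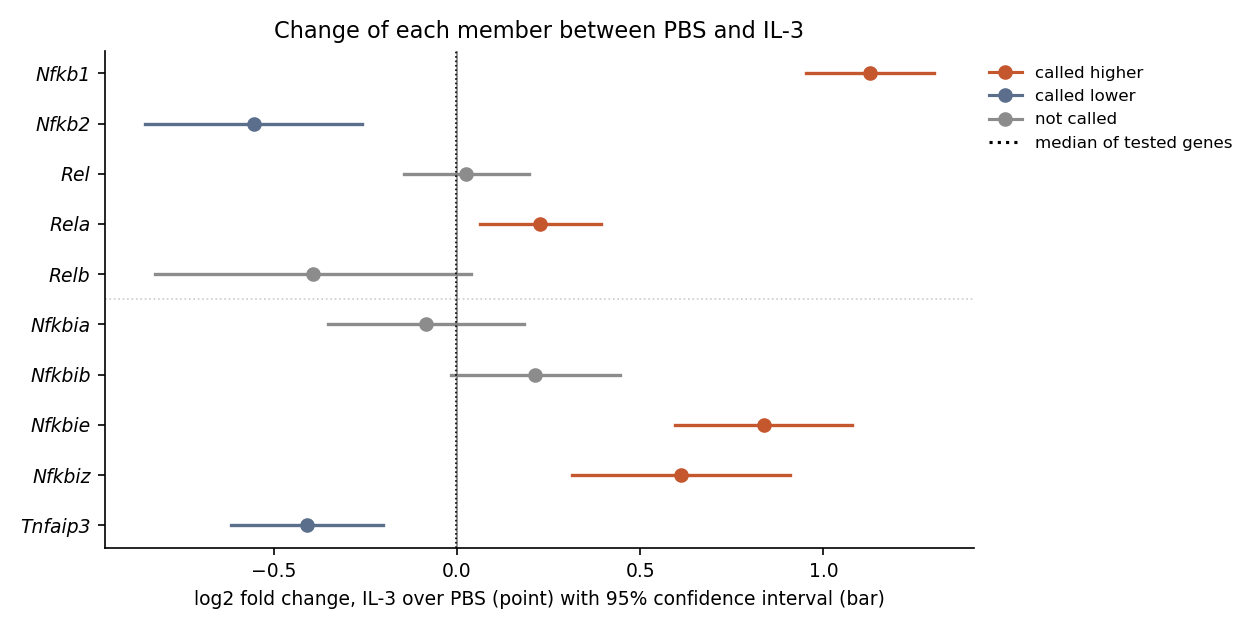
The log2 fold change of IL-3 over PBS for each member (point) with its 95% confidence interval (bar), subunits above the dotted line and inhibitors below it. Nfkb1 at 1.13 and Nfkbie at 0.84 lie farthest to the right, Nfkb2 at -0.56 lies farthest to the left, and the intervals of Rel, Relb, Nfkbia and Nfkbib include 0.

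Among the inhibitors, Nfkbie rose most. It encodes IkB-epsilon, a cytoplasmic inhibitor known to act on dimers that hold c-Rel or RelA. Its level was 18.9, 21.6 and 15.5 CPM with PBS and 33.8, 34.0 and 32.3 CPM in IL-3. The IL-3 libraries were tightly grouped and all above the PBS libraries. The mean rose from 18.7 ± 3.04 to 33.4 ± 0.888 CPM (log2 fold change 0.84 ± 0.11, fold 1.79, edgeR adjusted p = 2.3e-05).

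Nfkbiz encodes IkB-zeta, a nuclear member of the family that modulates transcription on chromatin and is needed for some secondary NF-kB targets. It measured 17.1, 12.6 and 16.6 CPM with PBS and 26.0, 25.3 and 19.7 CPM in IL-3. Each IL-3 library was above each PBS library, with IL-3 replicate 3 the nearest. The rise from 15.4 ± 2.44 to 23.7 ± 3.44 CPM corresponded to a log2 fold change of 0.61 ± 0.14 (interval 0.31 to 0.91, edgeR adjusted p = 0.0026).

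Tnfaip3 encodes A20, a ubiquitin-editing enzyme that dampens signalling upstream of the IkB kinase. It measured 63.4, 61.3 and 56.4 CPM with PBS and 42.5, 53.6 and 40.2 CPM in IL-3. All IL-3 libraries were lower, and IL-3 replicate 2 came close to PBS replicate 3. The mean went from 60.4 ± 3.60 to 45.4 ± 7.20 CPM (log2 fold change -0.41 ± 0.10, interval -0.62 to -0.20, edgeR adjusted p = 0.0034).

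Nfkbia, which encodes IkB-alpha, the classical feedback inhibitor, was the most abundant member and did not pass the test. It measured 252, 240 and 181 CPM with PBS and 212, 254 and 169 CPM in IL-3. The spread within each group was wider than the distance between the means of 224 ± 38.2 and 212 ± 42.9 CPM. The log2 fold change was -0.09 ± 0.13 (interval -0.35 to 0.18, edgeR adjusted p = 0.639). Relative to Nfkbia, Nfkbie had 0.0749, 0.0898 and 0.0857 counts per Nfkbia count in PBS and 0.159, 0.134 and 0.192 in IL-3, so that this within-library ratio was higher in every IL-3 library.

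Nfkbib encodes IkB-beta, an inhibitor that is released more slowly than IkB-alpha. It measured 28.6, 37.0 and 34.4 CPM with PBS and 42.5, 39.7 and 34.0 CPM in IL-3. The groups overlapped through IL-3 replicate 3. The log2 fold change was 0.21 ± 0.11 (interval -0.02 to 0.44, edgeR adjusted p = 0.137), and it passed the test without IL-3 replicate 3 (0.30, adjusted p = 0.0474). It was smaller without PBS replicate 1 (0.11, edgeR adjusted p = 0.474), without IL-3 replicate 1 (0.14, adjusted p = 0.411) and with library totals (0.05, adjusted p = 0.760). Exons of Nfkbib overlap those of Sirt2 and Ccer2 on the opposite strand, and 12.6% of its 50-base stretches are shared in reverse with Ccer2. Ccer2 had 0 to 5 counts per library, and Sirt2, a deacetylase gene, was at 103 ± 6.77 CPM with PBS and 108 ± 2.94 CPM in IL-3 (log2 fold change 0.07, edgeR adjusted p = 0.448).

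Replicate 3 was the lowest library of both groups for 5 members, Nfkb2, Relb, Nfkbia, Nfkbie and Tnfaip3. For all genes tested this held in 10.2%. Leaving out both replicate 3 libraries, a choice made after seeing this, gave the same counts of 4 members higher and 2 lower, with Nfkb1 at a log2 fold change of 1.22 and Nfkb2 at -0.48.

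In the GENCODE M21 annotation of build GRCm38, Nfkb1 is at chr3:135584655-135691547 on the minus strand and has up to 25 exons, whereas Nfkbia at chr12:55489410-55492647 on the minus strand has 6. Nfkb2 is at chr19:46304320-46312385 and Rela at chr19:5637483-5648130, both on the plus strand. Nfkbie is at chr17:45555703-45563169 on the plus strand, Nfkbiz at chr16:55811375-55838899, Tnfaip3 at chr10:19000910-19015657 and Rel at chr11:23736847-23770970, the last 3 on the minus strand. Relb at chr7:19606217-19629438 and Nfkbib at chr7:28758251-28767512 are both on the minus strand. Stretches of 50 bases shared with other genes in the same direction made up at most 0.65% of any member.

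Promoter windows of 250 bases before and 50 after the RefSeq start (GRCm38.p6) were found for 7 members, in 10 windows. Nfkb1, Relb and Nfkbiz had no window in the table used. The windows were searched on both strands for the kappaB consensus decamer and for the GAS element (TTCNNNGAA), the form to which activated STAT dimers bind. A kappaB match was found in 5 members, Nfkb2, Rel, Nfkbia, Nfkbie and Tnfaip3, and none in Rela or Nfkbib. Of all 27025 genes with windows, 9.55% had such a match, as did 8.46% of the 32851 windows. A GAS match was found in Nfkb2 only, against 9.55% of all genes and 8.3% of windows, and the matches to the 2 motifs did not overlap in it. A match is a match of letters and was not tested for binding.

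The regions before the start of Nfkbia, which did not pass the test, and of Nfkbie, which rose, are shown whole because each holds a single kappaB match while their transcripts differed in response. They are given 5′ to 3′ on the strand of the gene, with the match in capitals. The Nfkbia region is chr12:55492648-55492897 on the minus strand, and its match begins 29 bases before the start. The Nfkbie region is chr17:45555450-45555699 on the plus strand, and its match begins 106 bases before the start.
Nfkbia: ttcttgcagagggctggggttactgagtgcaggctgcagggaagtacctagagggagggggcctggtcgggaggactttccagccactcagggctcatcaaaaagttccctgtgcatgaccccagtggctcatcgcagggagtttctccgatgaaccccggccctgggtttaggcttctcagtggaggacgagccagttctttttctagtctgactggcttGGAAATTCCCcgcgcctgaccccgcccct
Nfkbie: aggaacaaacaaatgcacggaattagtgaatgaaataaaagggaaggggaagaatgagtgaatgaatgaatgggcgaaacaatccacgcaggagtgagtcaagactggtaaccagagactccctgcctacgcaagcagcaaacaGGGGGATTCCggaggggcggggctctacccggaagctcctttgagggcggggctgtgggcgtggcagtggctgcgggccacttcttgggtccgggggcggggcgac

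For Nfkb2 and Tnfaip3, the members that fell, and for Rel, which did not pass the test, 1 kappaB stretch each is shown, with the match in capitals. In Nfkb2 at chr19:46304688-46304717 on the plus strand, 2 overlapping matches begin 39 bases before the start, and the GAS match at chr19:46304579-46304608 begins 148 bases before it. The Rel stretch at chr11:23771042-23771071 on the minus strand also holds 2 overlapping matches, which begin 92 bases before the start. The Tnfaip3 stretch at chr10:19015516-19015545 on the minus strand holds a match that begins 125 bases before the start. Further kappaB matches not shown begin 11 bases before the same start of Nfkb2, 236 and 225 bases before 2 other RefSeq starts of Nfkb2, and 12 bases before the same start of Tnfaip3. Members with a match were thus found among those that rose, those that fell and those that did not pass the test. Among those that rose this rests on Nfkbie alone, since Rela had no match and Nfkb1 and Nfkbiz had no window.
Nfkb2, kappaB: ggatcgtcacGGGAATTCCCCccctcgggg
Nfkb2, GAS: tgggcgagccTTCCCCGAAaggggcgcgcc
Rel, kappaB: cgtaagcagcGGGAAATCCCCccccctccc
Tnfaip3, kappaB: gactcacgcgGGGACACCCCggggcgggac

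To compare levels between genes, CPM was divided by the median length in kilobases of the coding transcripts of each gene. On this scale of CPM per kb, Nfkbia stood first in both groups, at 142 ± 24.2 in PBS and 134 ± 27.2 in IL-3. Rela followed at 32.7 ± 1.76 in PBS and 38.3 ± 2.90 in IL-3. Nfkb1 was the fifth in order in PBS at 16.4 ± 1.29 and the third in IL-3 at 35.9 ± 3.61, where its libraries overlapped those of Rela above it and Nfkbib below it. In PBS the order went on from Rela to Nfkbib (26.8 ± 3.49), Tnfaip3 (25.02 ± 1.49), Nfkb1, Nfkb2 (10.8 ± 1.49), Relb (8.04 ± 2.28), Nfkbie (7.79 ± 1.27), Rel (5.22 ± 0.102) and Nfkbiz (3.94 ± 0.623). The PBS libraries of Nfkbib and Tnfaip3, of Nfkb2 and Relb, and of Relb and Nfkbie overlapped, and the other neighbours in this order were apart. In IL-3, Nfkbie stood sixth at 13.9 ± 0.371 CPM per kb, apart from Tnfaip3 above it (18.8 ± 2.99) and Nfkb2 below it (7.35 ± 1.53). Nfkb2, Relb (6.15 ± 1.56), Nfkbiz (6.04 ± 0.879) and Rel (5.32 ± 0.313) each overlapped the next in the IL-3 order.

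The makeup of the subunit transcripts was taken as the share of each in the summed CPM per kb of the 5 subunits. Nfkb1 made up 23.3%, 20.5% and 23.6% in PBS and 38.3%, 38.9% and 38.7% in IL-3. Nfkb2 made up 14.3%, 16.7% and 13.1% in PBS and 8.44%, 8.27% and 6.81% in IL-3. In both cases the 2 groups were far apart relative to the spread within each. Rela made up 41.8% to 47.9% in PBS and 40.4% to 42.6% in IL-3, above Nfkb1 in every library with these lengths and with coding lengths. With the longest transcripts Nfkb1 exceeded Rela in all 3 IL-3 libraries (39.7% to 40.5% against 32.5% to 34.6%), as it did in raw counts. Relb made up 8.11% to 14.03% in PBS and 5.33% to 7.44% in IL-3, and Rel 7.02% to 7.33% and 5.07% to 6.53%. With 3 samples against 3, the exact two-sided permutation test cannot go below p = 0.1, which was reached for Nfkb1, Nfkb2, Rel and Relb (adjusted over the 5 shares, p = 0.125), while Rela gave p = 0.2. These shares depend on each other, since they sum to the whole, and on the transcript lengths used.

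**Figure D3:**
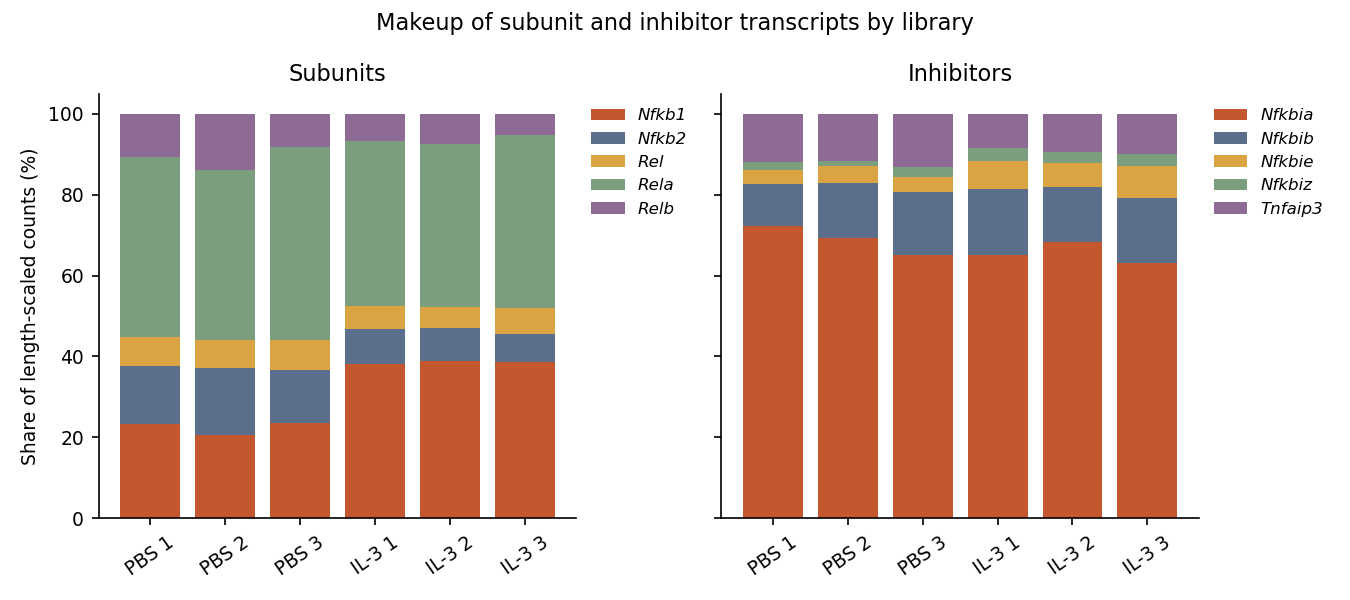
Share of length-scaled counts (%) of each gene among the 5 subunits (left) and among the 5 inhibitors (right) in the 6 libraries. The Nfkb1 segment of the subunits grew from 20.5% to 23.6% in PBS to 38.3% to 38.9% in IL-3, and Nfkbia made up 63.1% to 72.2% of the inhibitors in every library.

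Among the inhibitors, Nfkbia held 65.0% to 72.2% of the summed CPM per kb in PBS and 63.1% to 68.3% in IL-3. The share of Nfkbie was 3.56%, 4.10% and 3.67% in PBS and 6.81%, 6.01% and 7.97% in IL-3. Tnfaip3 went from 12.2% ± 0.893 to 9.25% ± 0.677. Nfkbib made up 10.4%, 13.6% and 15.7% in PBS and 16.5%, 13.5% and 16.1% in IL-3, and these groups overlapped. Nfkbia was the largest share in every library, and the shares among the inhibitors were not tested.

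The log2 ratio of summed inhibitors to summed subunits, both in CPM per kb, was 1.56, 1.58 and 1.32 in PBS and 1.07, 1.26 and 1.05 in IL-3. The groups did not overlap. Inhibitor transcripts exceeded subunit transcripts in every library through Nfkbia, since without it the log2 ratio was -0.29, -0.12 and -0.19 in PBS and -0.45, -0.39 and -0.39 in IL-3. The difference of the means was -0.36 (1.49 ± 0.14 in PBS and 1.13 ± 0.12 in IL-3, exact permutation p = 0.1, the smallest that 3 against 3 allows). Summed subunits went from 73.1 ± 2.35 to 93.0 ± 9.52 CPM per kb, and summed inhibitors were at 206 ± 25.4 and 204 ± 33.4. The rise of the subunit sum was close to that of Nfkb1 alone, from 16.4 to 35.9 CPM per kb. Rela went from 32.7 to 38.3, Nfkb2 from 10.8 to 7.35, Relb from 8.04 to 6.15 and Rel from 5.22 to 5.32. Without Nfkbia the difference in the log2 ratio was -0.21, and the groups again did not overlap.

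The other genes of the pathway were read from lists of kinases and adaptors, of other regulators and of target genes. These lists were chosen with earlier results of these data known, so their counts beside those of all genes are descriptive only. Among 32 kinases and adaptors, 31 were tested, 11 were higher, 4 were lower and 16 were not called, with a median log2 fold change of 0.14 (all genes tested: 18% higher, 20.2% lower, median -0.0033). With library totals in place of TMM, which shifts the log2 scale of every gene by about -0.16 (median), 7 were higher and 10 lower, against 1698 higher and 5030 lower of all 16675 genes. Traf1, an adaptor of TNF receptors, rose from 3.77 ± 1.98 to 18.4 ± 2.04 CPM (log2 fold change 2.29, edgeR adjusted p = 1.1e-06). Tab2 and Tab3, which link ubiquitin chains to the kinase TAK1, rose by 0.66 and 0.63 on the log2 scale. Myd88, the adaptor of Toll-like and IL-1 receptors, rose from 54.3 ± 2.78 to 85.6 ± 1.01 CPM (log2 fold change 0.66). Irak2, a kinase downstream of it, went from 43.0 ± 1.77 to 27.5 ± 1.33 CPM (log2 fold change -0.65). Of the IkB kinase genes, Chuk rose from 50.2 ± 3.30 to 71.1 ± 5.09 CPM, Ikbkb was at 109 ± 6.85 and 122 ± 0.457 CPM without passing the test (edgeR adjusted p = 0.051), and Ikbkg had a log2 fold change of -0.26 (edgeR adjusted p = 0.032). The kinase genes and Map3k14, which activates the non-canonical pathway and had a log2 fold change of 0.63, were named after their values were seen.

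All 18 of the other regulators were tested, and 8 were higher, 2 lower and 8 not called, with a median log2 fold change of 0.23, beside 18% higher and 20.2% lower of all genes tested. With library totals, 6 were higher and 5 lower. Tnip3, an A20-binding protein gene, rose from 2.37 ± 1.597 to 8.09 ± 2.54 CPM (log2 fold change 1.77, edgeR adjusted p = 0.00065). Rnf11, which acts with A20, rose from 79.9 ± 9.87 to 129 ± 7.86 CPM. Pdlim2, a nuclear ubiquitin ligase for RelA, rose by 0.60 on the log2 scale, N4bp1 by 0.60, and Zc3h12a, an RNase that degrades cytokine mRNA, by 0.52. The 2 that were lower were Tnip1, which binds A20 (log2 fold change -0.38), and Cyld, a deubiquitinase of the pathway (log2 fold change -0.25).

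Of 32 target genes, 28 were tested, 14 were higher, 5 were lower and 9 were not called, beside 18% higher and 20.2% lower of all genes tested. Because earlier results were known when the targets were listed, this comparison is descriptive and not a test of enrichment. The median log2 fold change was 0.38. Their summed level ranged from 1223 to 1285 CPM with PBS and from 4771 to 5036 CPM in IL-3. Most of that sum in IL-3 came from 4 genes, Il6 and, named after their values were seen, Ccl3 (330 ± 18.6 to 1154 ± 64.5 CPM), Ccl4 (199 ± 13.4 to 1050.0 ± 90.1 CPM) and Ier3 (122 ± 5.26 to 581 ± 27.3 CPM). Il6, a cytokine gene, rose from 87.3 ± 7.10 to 1346 ± 124 CPM (log2 fold change 3.95, edgeR adjusted p = 1.9e-15). Ccl2, Il1b and Ptgs2, which encode a chemokine, a cytokine and the inducible cyclooxygenase, rose by 4.43, 3.06 and 2.71 on the log2 scale. The size of the Ccl2 value rests on low PBS levels, with 22, 5 and 6 counts in replicates 1, 2 and 3. Cxcl10, an interferon-induced chemokine gene, went from 6.02 ± 4.53 to 0.635 ± 0.150 CPM (log2 fold change -3.24, edgeR adjusted p = 0.00061), with PBS replicate 3 at 0.969 CPM near the IL-3 libraries. Ccl20 and Nos2 had no counts in any library, where a count of 0 allows up to 3 counts, or 0.233 to 0.296 CPM, for counting error only. Target genes such as Icam1 and Sod2, for which log2 fold changes of 0.13 and 0.10 were measured, did not pass the test, and they were named after their values were seen.

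**Figure D4:**
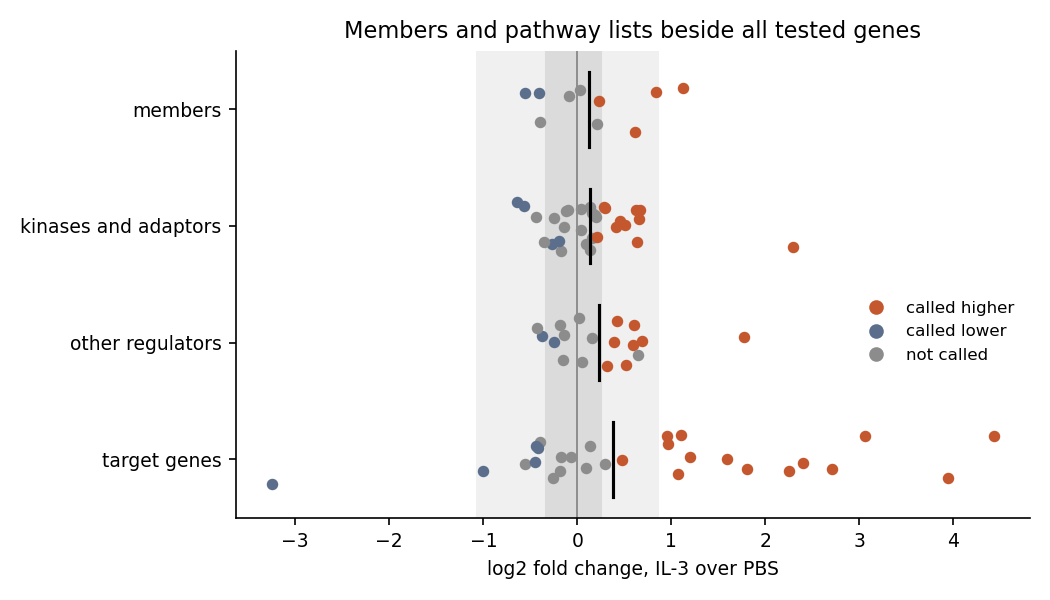
The log2 fold change of IL-3 over PBS for every tested gene of each list, spread vertically for visibility, with a black bar at the list median. The dark and light grey bands span the 25th to 75th (-0.34 to 0.25) and the 5th to 95th (-1.07 to 0.85) percentiles of all genes tested, and the target genes reach from -3.24 for Cxcl10 to 4.43 for Ccl2 while the members stay between -0.56 and 1.13.

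Markers of cell types also differed between the groups, in both directions within several lists. Of 9 basophil markers, 6 were higher and 2 lower, with a summed level of 10937 to 12177 CPM with PBS and 16933 to 17205 CPM in IL-3. Mcpt8, a basophil protease gene, was at 3066 ± 171 and 5895 ± 178 CPM, and Prss34 at 5615 ± 323 and 5661 ± 183 CPM. Of 10 monocyte and macrophage markers, 7 were lower and 2 higher, with a summed level of 11842 to 12779 CPM with PBS and 6183 to 6817 CPM in IL-3, led by the lysozyme gene Lyz2 at 10456 ± 432 and 5348 ± 316 CPM. The 2 that were higher were Adgre1, at 48.2 and 69.5 CPM in PBS and IL-3, and Ly6c2, at 9.16 and 22.4 CPM. Of 6 mast cell markers, 4 were higher (840 to 945 CPM summed in PBS, 1437 to 1571 CPM in IL-3), led by Cpa3 at 547 ± 38.8 and 793 ± 21.7 CPM. All markers of these 3 lists were tested. Summed levels of the neutrophil list were 78.9 to 114 CPM with PBS and 134 to 200 CPM in IL-3 (5 of 8 tested, 1 higher, Retnlg at 11.3 and 69.2 CPM, and 1 lower, Mpo at 42.9 and 27.7 CPM), and of the eosinophil list 155 to 173 and 95.02 to 136 CPM (5 of 6 tested, 1 higher and 3 lower, with Ear2 the most abundant at 134 ± 5.75 and 51.3 ± 8.39 CPM). Dendritic cell markers summed to 84.7 to 89.3 and 70.1 to 79.1 CPM (5 of 6 tested, 1 lower, with Itgax the most abundant at 76.6 ± 2.65 and 67.9 ± 4.05 CPM and Cd209a with no counts), and erythroid markers to 100 to 219 and 54.6 to 101.1 CPM (4 of 6 tested, 2 lower, with Hba-a1 the most abundant at 80.1 ± 33.1 and 36.6 ± 11.8 CPM and Alas2 with no counts). NK and T cell markers summed to 6.54 to 11.5 and 29.8 to 33.5 CPM (2 of 6 tested, 1 higher, Nkg7 at 6.29 and 29.3 CPM, which made up most of the sum, and Gzma with no counts). B cell markers summed to 6.05 to 8.90 and 3.83 to 6.32 CPM (3 of 4 tested, 1 lower). The lower one was Cd79b, the most abundant in PBS at 3.62 ± 1.54 CPM and at 1.70 ± 0.900 CPM in IL-3. Fcer1a and Cebpa, also on the basophil list, were the 2 lower, with means of 289 and 204 CPM and of 264 and 162 CPM in PBS and IL-3, and Itga2, which encodes CD49b, was at 23.3 ± 1.90 and 33.6 ± 3.18 CPM. The genes of this paragraph other than the most abundant of each list were named after their values were seen. Mcpt8 and Prss34 were thus abundant in every library. The monocyte and macrophage list reached a summed level in PBS similar to that of the basophil list, mostly through Lyz2. The next highest of its markers in PBS was C1qb at 615 CPM. Such sums over unlike genes do not give the shares of the cell types. The part of these cell types in the differences of the NF-kB genes was not tested.

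**Figure D5:**
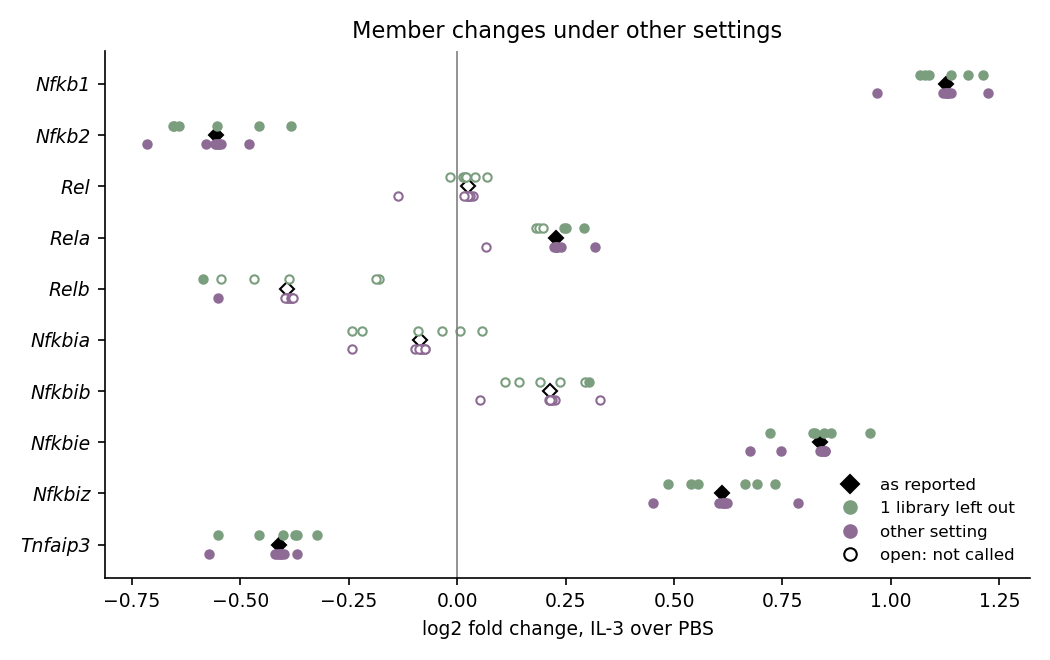
The log2 fold change of each member as reported (diamond), with 1 library left out (green, raised) and under the other settings (purple, lowered), open symbols where the gene was not called. Nfkb1, Nfkb2, Nfkbie, Nfkbiz and Tnfaip3 stayed called on one side of 0 under all these settings, whereas Rela, Relb and Nfkbib changed their call under some of them and Rel and Nfkbia crossed 0.

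Across the settings plotted, Nfkb1 ranged from 0.97 to 1.22 on the log2 scale, Nfkbie from 0.68 to 0.95, Nfkbiz from 0.45 to 0.79, Nfkb2 from -0.71 to -0.38 and Tnfaip3 from -0.57 to -0.32. These 5 genes passed the test under each of the 14 alternatives that were refitted.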

How the data were processed

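RNA of BMBAs was captured on oligo-dT beads, amplified as whole-transcriptome cDNA and sequenced. The labels name a column kit for RNA purification, the methods direct lysis. The authors used Cutadapt 3.4 for trimming and Bowtie2 for mapping to mouse reference RNA (GRCm38 by the methods, GRCm39 by the labels). They deposited raw counts per gene symbol, with no molecular identifiers described, so PCR copies were counted as reads. All 6 libraries were used, and 4866 of 37043 symbols had no count. No 2 libraries agreed within sampling noise. The study gives n as 3 cultures for each stimulation. Whether each came from its own mouse is not said, so p-values measure the spread between these cultures.

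Counts were fitted with edgeR 4.0.16 in R 4.3.3 (filterByExpr, TMM, quasi-likelihood F test, group as the only term, two-sided, Benjamini-Hochberg over all genes tested). The study used TCC, which builds on edgeR. SE came from the F value. Alternatives were DESeq2 1.42.0 size factors and Wald test, limma 3.58.1 voom, library totals, other filters, a replicate block, a threshold of 0.01 and leaving libraries out. Lengths, positions and promoters came from GENCODE M21 and RefSeq.

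The members and lists were chosen with earlier results of these data known. Every member is named. Of the other pathway lists, the 5 called genes with the largest change are named among those whose groups did not overlap and whose higher mean was at least 5 CPM, and of the marker lists the most abundant.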

Additional observations from a re-analysis of the deposited data

How the results depend on the processing

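Of the 140 member values refitted under other settings, 127 kept their direction and their side of the threshold. Rel turned to -0.14 with library totals and ranged from -0.016 (IL-3 replicate 1 left out) to 0.068 over the fits lacking 1 library. Over the same fits, Nfkbia ranged from -0.24 to 0.058, above 0 when PBS replicate 1 or IL-3 replicate 3 was left out, and neither gene was called in any of them. The 2 subunits called higher became 1 with library totals and at a threshold of 0.01, and 1 to 2 on leaving out 1 library. The 1 subunit called lower became 2 with library totals, with no filter and with the replicate block (Relb, at a log2 fold change of -0.38), and 1 to 2 on leaving out 1 library. The sources used here do not say whether cultures with the same replicate number were matched. Between the PBS and IL-3 library of one number, deviations correlated at 0.00043, -0.02 and -0.03 (replicates 1, 2 and 3). Values this close to 0 cannot show how the cultures were set up. Among the members, replicate 3 was the lowest library of both groups for 5, replicate 2 for 1 and replicate 1 for 0. Apart from subunits called lower, the block changed no count by more than 1.5 times (2842 genes higher and 3247 lower in all, against 3003 and 3372). With library totals, 1698 genes were higher and 5030 lower. The counts of 7 kinases and adaptors higher and 10 lower, and of 5 other regulators lower, belong to library totals. Kinases and adaptors called lower became 2 with the DESeq2 Wald test, at a threshold of 0.01 and without both replicate 3 libraries, and 2 to 5 on leaving out 1 library. Other regulators called lower became 1 at a threshold of 0.01 and 1 to 3 on leaving out 1 library. Differences in subunit share, in percentage points, depended on the length used. With coding lengths they were 11.9 for Nfkb1, -4.66 for Nfkb2, -2.80 for Rel and -1.11 for Rela. With raw counts and no length scaling they were 18.4 for Nfkb1, -8.31 for Nfkb2, -4.09 for Rel and -2.23 for Rela, which was at -2.06 with the longest transcripts, against 16.1, -6.85, -1.38 and, for Rela, -3.49 as reported. The difference for Rela was -1.91 without PBS replicate 3 (range -4.95 to -1.91 on leaving out 1 library), and for Relb, reported as -4.42, it was -2.89 without PBS replicate 2 (range -5.85 to -2.89). The log2 ratio of inhibitors to subunits differed by -0.21 without Nfkbia and by -0.44 to -0.31 on leaving out 1 library. Causes of these shifts were not tested. The effect of depth on the calls was not tested. Relb, the member with the fewest counts, also had the largest SE.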
